A study of Mus musculus with 4 samples.

Results

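The genes described here encode the 3 families of enzymes that join a small carrier to drugs, steroids and reactive metabolites: glutathione transferases, UDP-glucuronosyltransferases and sulfotransferases. They were chosen by name alone, as the probe sets whose annotated gene symbols start with Gsta, Gstk, Gstm, Gsto, Gstp, Gstt, Gstz, Mgst, Ugt1, Ugt2, Ugt3 or Sult. This gave 63 of the 45101 probe sets on the array. Of these, 59 name a single gene each, 46 genes in all, and 4 name several genes. On the 4 arrays 27 of the 46 genes counted as expressed, meaning that the mean of log2(signal + 26.4) over the arrays reached 7.06, the median over all probe sets. They were 18 of 23 glutathione transferase genes, 4 of 10 glucuronosyltransferase genes and 5 of 13 sulfotransferase genes.

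Conjugation makes a fat-soluble compound more soluble in water, so that it can leave in bile or urine. Glutathione transferases add glutathione to electrophiles such as lipid peroxidation products, and the kidney trims the resulting conjugates to mercapturic acids. UDP-glucuronosyltransferases of the endoplasmic reticulum add a sugar from a UDP-sugar donor, and cytosolic sulfotransferases add a sulfate group from the activated donor PAPS. In the kidney many, but not all, of these enzymes are found mainly in the proximal tubule.

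Frozen kidney tissue of female mice on the FVB/NJ background was compared, from animals 4.5 months old and all operated on at 2 months of age, 10 weeks before the kidneys were taken. The 4 groups were nondiabetic control littermates after a sham operation, such littermates after uninephrectomy (removal of 1 kidney), diabetic OVE26 transgenic mice after a sham operation, and diabetic OVE26 transgenic mice after uninephrectomy. OVE26 mice become diabetic early in life through a calmodulin transgene driven by an insulin promoter in pancreatic beta cells. The series asks how diabetes changes renal gene expression, with uninephrectomy as an accelerating factor. Each group is 1 array of RNA pooled from 4 mice, so a difference between 2 arrays has no replicate check, no value measures the spread between animals, and the number of arrays limits the precision.

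Each factor was measured in 2 arms that share no array. For diabetes these were the sham pair and the operated pair, and for uninephrectomy the control pair and the OVE26 pair. The mean of the 2 arms was tested with limma (additive fit, Benjamini-Hochberg adjustment over 11197 expressed genes, adjusted p under 0.05). Only genes that passed are said to have risen or fallen. This test is a weak one here, because each gene has 1 residual degree of freedom and its standard error comes almost entirely from other genes of like expression.

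Of 12 proximal tubule markers 11 were expressed (Slc7a13 was not), and 0 were at a signal of 0. The summed signal of the 12 was 185968 in nondiabetic sham, 198191 in nondiabetic uninephrectomy, 170548 in diabetic sham and 132973 in diabetic uninephrectomy mice. Of 4 hepatocyte markers only albumin (Alb) was expressed, with signals between 203.3 and 651.2, and 0 of 5 T and B cell markers were. The summed signal of 8 tubular injury markers was 13406, 17586, 17991 and 39226 in the same order of groups, that of 8 macrophage markers 8935, 7658, 8631 and 14437, and that of 5 adipocyte markers 14264, 5228, 26082 and 13105. Such sums mainly follow their brightest genes. Between the sham arrays Kap went from 48290 to 32343, while the median log2 difference of the 11 expressed proximal tubule markers was 0.03. Between the nondiabetic arrays the macrophage gene Csf1r went from 6558 to 5093, while the median of the 7 expressed macrophage markers was 0.28. The part of these cell types in the differences below was not tested. In bulk tissue, fewer cells of a type and less RNA per cell cannot be told apart. The signal of 9 hybridisation spike-in probe sets, relative to the nondiabetic sham array, was 1.26 on the nondiabetic uninephrectomy, 1.24 on the diabetic sham and 0.923 on the diabetic uninephrectomy array, and that of 3 probe sets for 18S ribosomal RNA was 1.02, 1.32 and 1.88.

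Most conjugation enzymes differed little between the groups. Of the 27 expressed genes, 20 (74.1%) were under 1.5-fold different in all 4 comparisons, against 77.1% of all expressed genes. At least 2-fold differences in any comparison were found for 2 of them (7.41%, against 5.42% of all expressed genes), the glucuronosyltransferase gene Ugt2b38 and the glutathione transferase gene Gstm3. Between the sham arrays 0 of 27 members were at least 2-fold different with diabetes, where 0.786% of all expressed genes were higher and 0.447% lower (1.23% in all). Between the uninephrectomised arrays 1 was higher (2.14% of all genes) and 0 were lower (1.03%, and 3.17% in either direction). After uninephrectomy 0 members were 2-fold different in nondiabetic mice, against 0.661% of all genes higher and 0.518% lower (1.18% in all). In diabetic mice 2 were higher (1.48%) and 0 lower (0.661%, and 2.14% in either direction). Over so few genes these counts lie near the shares of all expressed genes. The median log2 difference over the 27 genes was -0.07 in sham and 0.02 in uninephrectomised mice for diabetes, and 0.16 in nondiabetic and 0.04 in diabetic mice for uninephrectomy. The medians over all expressed genes lay between -0.02 and 0.01. When each array was centred on the median of all its probe sets, the medians over all expressed genes became -0.08, 0.11, -0.13 and 0.06 in the same order and those over the members -0.16, 0.14, 0.03 and 0.12.

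**Figure D1:**
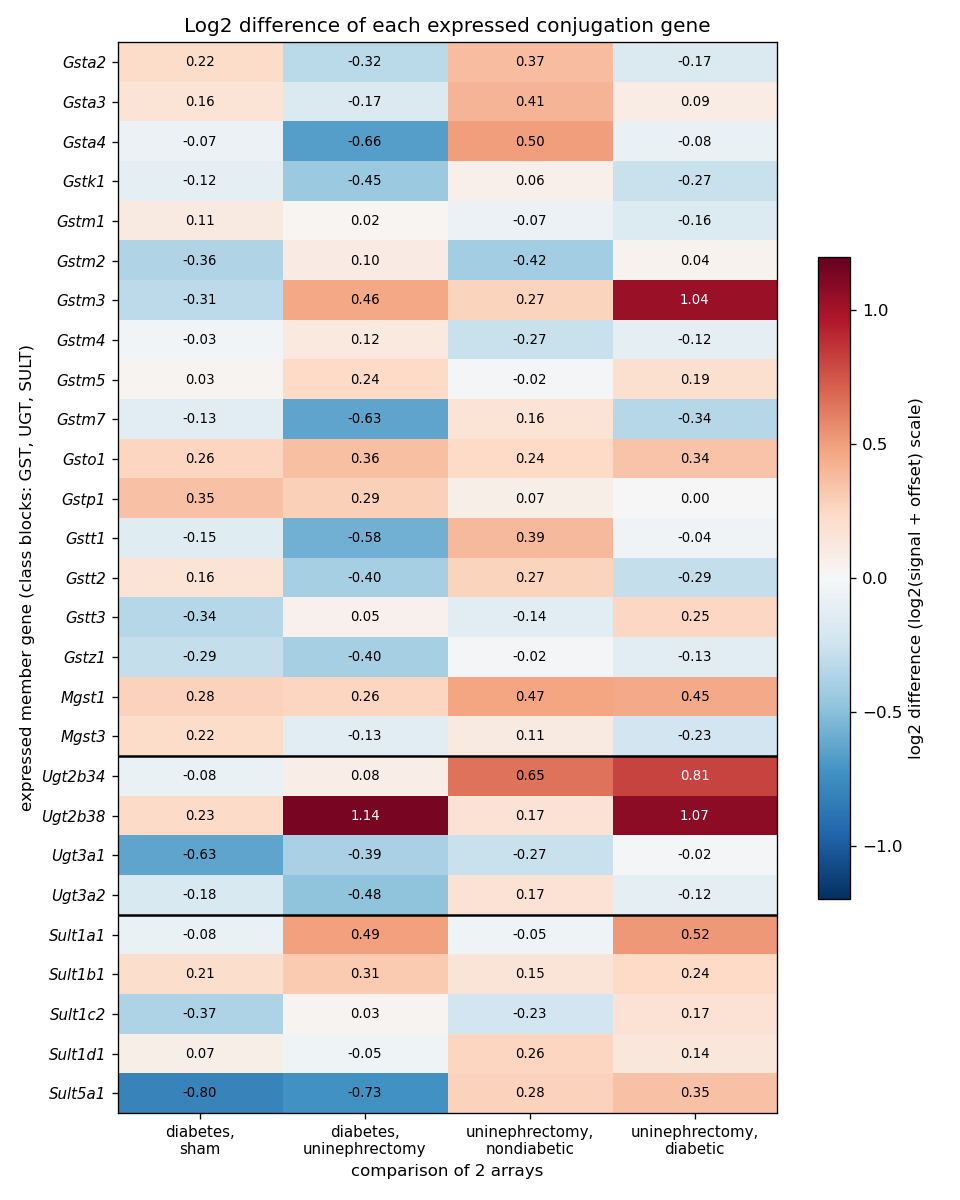
Each cell gives the log2 difference of 1 expressed conjugation gene (rows, in blocks of glutathione transferases, glucuronosyltransferases and sulfotransferases) in 1 of the 4 comparisons of 2 arrays (columns), on the log2(signal + 26.4) scale. The values run from -0.80 (Sult5a1) to 1.14 (Ugt2b38), and Ugt2b38 and Gstm3 are the 2 genes that reach 1 in size.

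Over both arms, 1 member rose with diabetes (Ugt2b38) and 0 fell, against 1.48% and 0.75% of all expressed genes in limma (2.23% in either direction). With uninephrectomy 1 member rose (Ugt2b34) and 0 fell, against 0.339% and 0.179% (0.518% in either direction). At an unadjusted limma p under 0.05 there were 2 higher and 5 lower members for diabetes and 4 higher and 0 lower for uninephrectomy. This was 25.9% of the members for diabetes, against 9.53% of all expressed genes, and 14.8% for uninephrectomy, against 5.67%. In limma without a trend of the prior variance the shares were 11.1% against 8.09% for diabetes and 14.8% against 5.31% for uninephrectomy. The direction was the same in both arms for 15 of 27 members with diabetes (55.6%, against 52.4% of all expressed genes) and for 14 with uninephrectomy (51.9%, against 47.6%). Where both arrays of a factor level are said below to lie above or below the other 2, the share of all expressed genes was not counted. With so few arrays such a pattern is not evidence of an effect by itself.

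**Figure D2:**
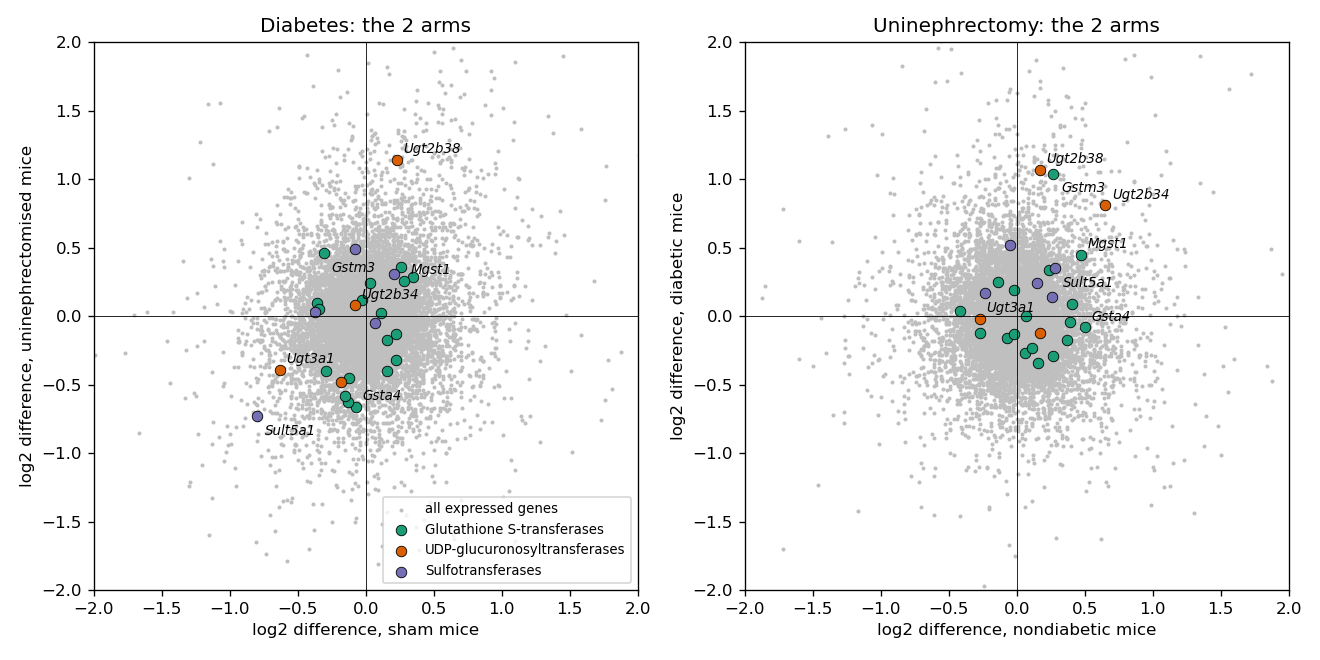
Log2 difference in the first arm (x axis) against the other arm (y axis), for diabetes in the left panel and uninephrectomy in the right, with all expressed genes in grey and the 27 conjugation genes coloured by family. Ugt2b38 lies at 1.14 and 1.07 on the y axis of the 2 panels, against 0.23 and 0.17 on the x axis, and 43 and 26 genes with a difference beyond 2 on either axis are not drawn.

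The largest differences were in the Ugt2b genes, which encode glucuronosyltransferases for steroids, bile acids and drugs. The Ugt2b38 signal was 2919 on the nondiabetic sham, 3286 on the nondiabetic uninephrectomy, 3437 on the diabetic sham and 7256 on the diabetic uninephrectomy array. The first 3 arrays were close to each other and the diabetic uninephrectomy array stood above them. Ugt2b38 rose with diabetes by 0.69 ± 0.16 on the log2 scale, averaged over the arms (limma SE, adjusted p = 0.0075), from 0.23 between the sham arrays and 1.14 between the operated arrays. For uninephrectomy its mean difference was 0.62 ± 0.16 (limma adjusted p = 0.057), with arms of 0.17 in nondiabetic and 1.07 in diabetic mice. Without a trend of the prior variance, limma gave an adjusted p of 0.47 for the diabetes difference, and it was 0.17 with median centring.

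Ugt2b37 and Ugt2b5, both below the expression filter and singled out after their values were seen, were also highest on that array. The Ugt2b37 signal was 757.3 there, against 34.4 on the nondiabetic sham, 81.7 on the nondiabetic uninephrectomy and 9.6 on the diabetic sham array. The Ugt2b5 signal was 310.4 there, against 15.8, 25.6 and 57.9. The 3 lower signals of either gene are dim, so the size of their differences is set by the offset: the difference between the diabetic arrays was 4.44 for Ugt2b37 on the log2(signal + 26.4) scale, 6.16 with an offset of 1 and 3.34 with an offset of 72.5. For Ugt2b5 it was 2.00, 2.40 and 1.55. With the offset of 72.5 Ugt2b37 reached the expression filter, but only through its diabetic uninephrectomy signal. Its uninephrectomy differences there were 0.53 in nondiabetic and 3.34 in diabetic mice, so a limma call in that setting would rest on that array. In a limma fit without the expression filter neither passed for diabetes (adjusted p = 0.9 for Ugt2b37 and 0.35 for Ugt2b5) or for uninephrectomy (adjusted p = 0.8 and 1).

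In the RefSeq gene order of assembly GRCm38.p6, Ugt2b34, Ugt2b1, Ugt2b35, Ugt2b36, Ugt2b5, Ugt2b37, Ugt2a3 and Ugt2b38 follow each other on chromosome 5 with no other protein-coding gene between them. The 250 bases before the annotated starts of Ugt2b5, Ugt2b37 and Ugt2b38 were much alike. They are printed because these are the 3 genes of the cluster with the highest signals in diabetic uninephrectomy mice relative to the other groups, and Ugt2b34, whose signals followed another pattern, is added for contrast. The sequences are RefSeq's, from GRCm38.p6, on the strand of the gene, and capitals mark the longest run of letters shared by all 3.
Ugt2b5, chr5:87140341-87140590, - strand: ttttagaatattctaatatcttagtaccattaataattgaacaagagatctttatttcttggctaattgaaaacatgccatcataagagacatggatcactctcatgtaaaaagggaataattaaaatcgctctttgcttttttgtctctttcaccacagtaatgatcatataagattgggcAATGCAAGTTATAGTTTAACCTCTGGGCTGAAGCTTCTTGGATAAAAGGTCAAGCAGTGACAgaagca
Ugt2b37, chr5:87254789-87255038, - strand: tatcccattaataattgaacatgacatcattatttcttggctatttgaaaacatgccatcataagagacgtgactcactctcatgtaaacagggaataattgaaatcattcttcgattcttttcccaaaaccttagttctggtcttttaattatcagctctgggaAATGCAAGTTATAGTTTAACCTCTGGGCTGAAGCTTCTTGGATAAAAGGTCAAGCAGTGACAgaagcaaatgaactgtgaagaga
Ugt2b38, chr5:87424204-87424453, - strand: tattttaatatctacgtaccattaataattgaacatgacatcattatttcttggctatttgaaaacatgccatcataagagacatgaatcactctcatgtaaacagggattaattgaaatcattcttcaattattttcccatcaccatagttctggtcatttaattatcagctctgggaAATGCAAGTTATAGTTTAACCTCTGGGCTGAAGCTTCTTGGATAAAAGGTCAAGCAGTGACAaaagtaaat
Ugt2b34, chr5:86906938-86907187, - strand: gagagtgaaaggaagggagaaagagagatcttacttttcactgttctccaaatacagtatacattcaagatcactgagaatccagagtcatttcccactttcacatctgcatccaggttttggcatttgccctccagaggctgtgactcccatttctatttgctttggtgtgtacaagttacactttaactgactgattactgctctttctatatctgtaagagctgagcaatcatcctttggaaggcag

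The shared run was 62 letters long and began 68, 85 and 71 bases before the starts of Ugt2b5, Ugt2b37 and Ugt2b38. It was found in 3 of 32851 RefSeq promoter windows of 300 bases (0.00913%), those of these 3 genes. Because the run was defined from these 3 promoters, its presence in them was fixed in advance. The count shows only that no other window held it, and a link to the signals was not tested. In global alignments of the 250 bases the identity was 85.2% between Ugt2b37 and Ugt2b38, 81.5% between Ugt2b38 and Ugt2b5 and 73% between Ugt2b37 and Ugt2b5. Ugt2b36, next to Ugt2b5, shared 22 letters of the run and was 58.3% to 60.4% identical to the 3, with signals between 77.1 and 103.6 on the 4 arrays. The genes are close paralogs, and whether a probe set also binds another gene's transcript was not tested. On the 3 arrays where Ugt2b38 had signals of 2919 to 3437, the probe sets of Ugt2b37 and Ugt2b5 read 9.6 to 81.7. On the diabetic uninephrectomy array all 3 were at their highest, at 7256 for Ugt2b38, 757.3 for Ugt2b37 and 310.4 for Ugt2b5.

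**Figure D3:**
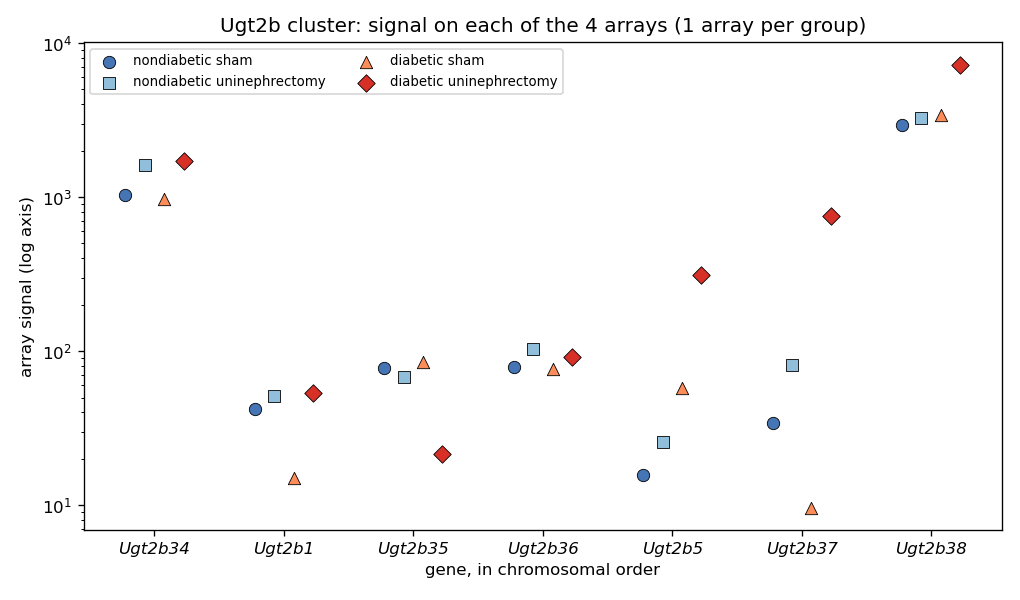
Signal (log axis) of the 7 Ugt2b genes with a probe set of their own, in chromosomal order, with 1 marker for each of the 4 arrays. Ugt2b5, Ugt2b37 and Ugt2b38 are highest on the diabetic uninephrectomy array, while Ugt2b34 is higher on both uninephrectomy arrays.

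Ugt2b34 was higher after uninephrectomy in both nondiabetic and diabetic mice. Its signals were 1028 in nondiabetic sham and 1628 in nondiabetic uninephrectomy mice, and 970.1 and 1724 in the diabetic groups, so both operated groups lay above both sham groups. It rose with uninephrectomy by 0.73 ± 0.16 on the log2 scale (limma adjusted p = 0.012), with arms of 0.65 and 0.81, and its mean difference with diabetes was 0.00 in size, with an SE of 0.16. Its other probe set, with signals of 543.8, 888.5, 578.1 and 823.8, gave a mean of 0.59. The limma call was lost with median centring (adjusted p = 0.49) and without a trend (0.69). Ugt2b1, Ugt2b35 and Ugt2b36 lay below the filter, with no signal above 103.6.

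The Ugt3a enzymes differ from the other glucuronosyltransferases in using UDP-sugars other than UDP-glucuronic acid. Ugt3a1 had signals of 6528 and 5425 in nondiabetic sham and uninephrectomy mice and of 4211 and 4147 in the diabetic groups. Both diabetic groups lay below both nondiabetic groups, and the mean of -0.51 ± 0.15 over both arms did not pass (limma adjusted p = 0.069). Its other probe set gave -0.45. Ugt3a1 did pass under quantile normalisation (adjusted p = 0.013) and with the stricter expression filter (0.031). Ugt3a2 had signals of 22517, 25422, 19935 and 18282 on the control sham, control uninephrectomy, OVE26 sham and OVE26 uninephrectomy arrays, a mean difference of -0.33 ± 0.20 with diabetes (limma adjusted p = 0.72).

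The Ugt1a genes, which include the bilirubin-conjugating Ugt1a1, have first exons of their own and share the remaining exons. Their 3 probe sets list 8 Ugt1a genes each and cannot be assigned to any of them. The brightest had signals of 43102, 47804, 46448 and 38052 in the same order of groups. For all 3 probe sets the difference with diabetes was small and positive in sham mice (log2 0.08 to 0.17) and -0.33 in uninephrectomised mice. Here the diabetic uninephrectomy array was lowest and the nondiabetic uninephrectomy and diabetic sham arrays were highest. The spike-in probe sets had the same order, and their part in the result was not tested. The probe set shared by Ugt2a1 and Ugt2a2 had signals between 7.7 and 35.

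Among the 18 expressed glutathione transferase genes 0 passed limma for either factor (at an unadjusted p under 0.05, 4 for diabetes and 2 for uninephrectomy, against 9.53% and 5.67% of all expressed genes). Their log2 differences ranged from -0.36 to 0.35 with diabetes in sham mice and from -0.66 to 0.46 in uninephrectomised mice. Alpha class enzymes conjugate products of lipid peroxidation, and Gsta4 is the one most active on 4-hydroxynonenal. Gsta4 had signals of 3265 in nondiabetic sham, 4623 in nondiabetic uninephrectomy, 3101 in diabetic sham and 2924 in diabetic uninephrectomy mice. Its nondiabetic uninephrectomy signal stood above the rest, which gave differences of -0.07 and -0.66 in the 2 arms of diabetes (mean -0.36 ± 0.16, limma adjusted p = 0.34).

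Gsta2 had signals of 29027, 37407, 33901 and 30044 on the control sham, control uninephrectomy, OVE26 sham and OVE26 uninephrectomy arrays. Gsta3 had signals of 2246, 2996, 2505 and 2663. Both differed by less than 1.5-fold in all comparisons.

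Theta class enzymes act on small halogenated compounds and other electrophiles. Gstt1 had signals of 4817, 6340, 4337 and 4231 on the control sham, control uninephrectomy, OVE26 sham and OVE26 uninephrectomy arrays, with differences of -0.15 and -0.58 in the 2 arms of diabetes (mean -0.37 ± 0.16, limma adjusted p = 0.34). Gstt2 had signals of 8592, 10386, 9624 and 7882. Gstk1, the kappa class enzyme of mitochondria and peroxisomes, had signals of 7596, 7902, 6970 and 5768. Gstz1, which also serves as maleylacetoacetate isomerase in tyrosine breakdown, had signals of 3562, 3513, 2910 and 2665, lower in both diabetic groups (mean -0.34 ± 0.15, limma adjusted p = 0.39).

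On the diabetic uninephrectomy array 9 of 27 members (33.3%) had their highest signal, against 27.7% of all expressed genes. Gsta4, Gstk1, Gstm7, Gstt1, Gstt2, Gstz1, Mgst3, Ugt3a1 and Ugt3a2 were the 9 of 27 members (33.3%) with their lowest signal on the diabetic uninephrectomy array, against 30.2% of all expressed genes. The median log2 difference of the 11 expressed proximal tubule markers with diabetes was 0.03 in sham and -0.58 in uninephrectomised mice, and their part in these differences was not tested. Gsta2, Gstt2 and Mgst3 were the 3 members (11.1%) in which both the nondiabetic uninephrectomy and the diabetic sham array lay above the other 2 arrays, as they did for the spike-in probe sets, against 18.2% of all expressed genes.

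**Figure D4:**
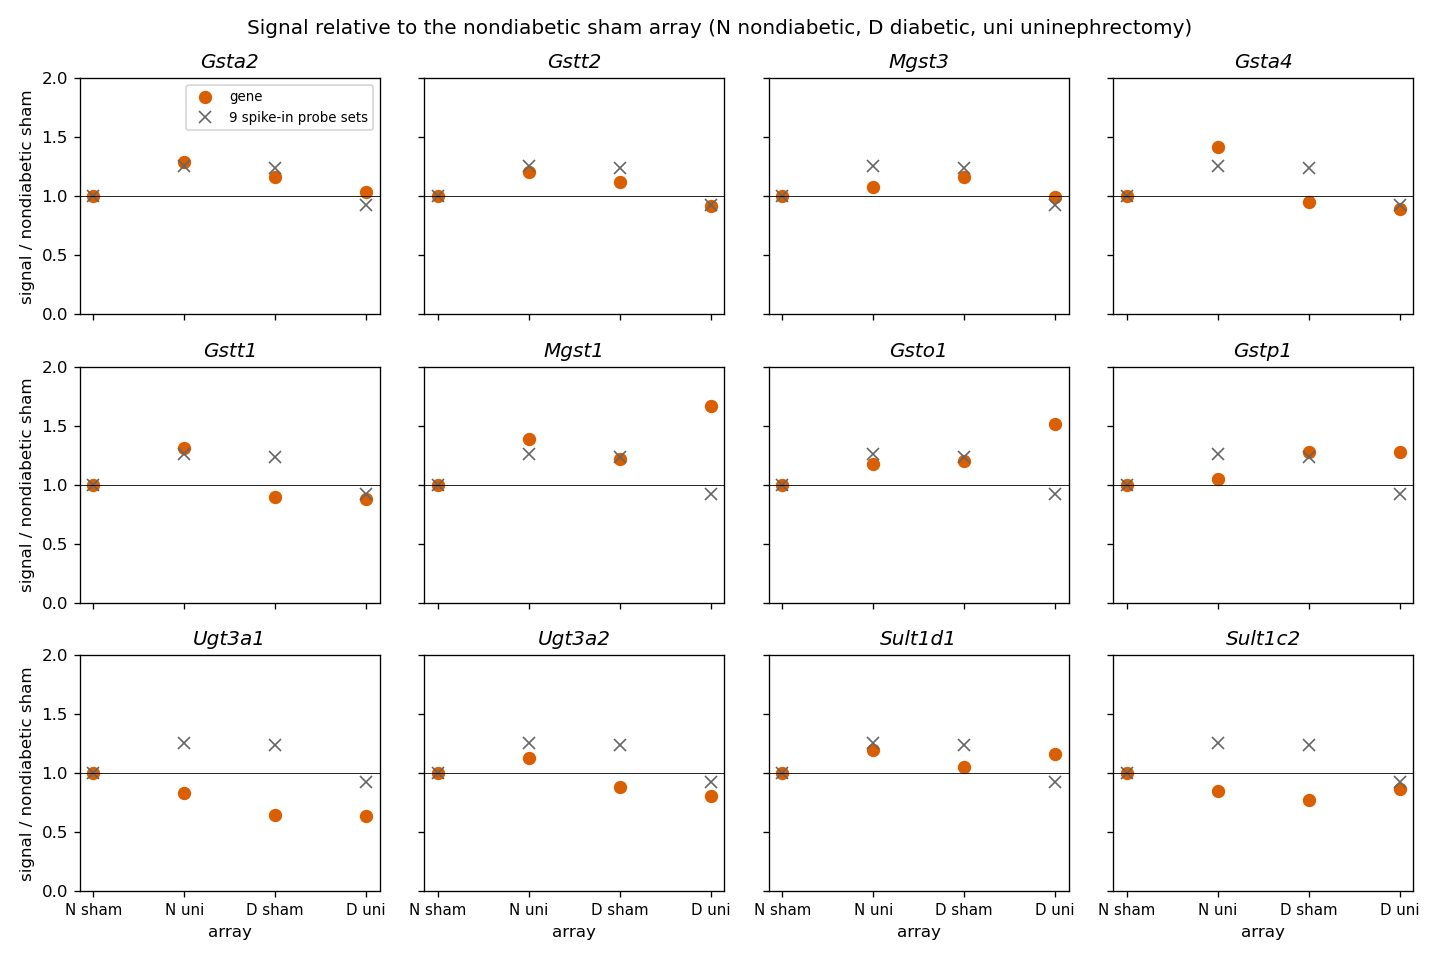
Signal on each array divided by that on the nondiabetic sham array (linear axis) for 12 bright members (filled circles), beside the geometric mean of 9 spike-in probe sets (crosses: 1.26, 1.24 and 0.923 on the other 3 arrays). Gsta2, Gstt2 and Mgst3 are above 1 where the spike-ins are, Mgst1 and Gsto1 are highest in diabetic uninephrectomy mice, and Ugt3a1 is below 1 on the other 3 arrays.

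Mu class genes were close to level in the bright members. Gstm1 had signals of 7933, 7544, 8548 and 7665, and Gstm5 had signals of 7757, 7650, 7938 and 9063, on the control sham, control uninephrectomy, OVE26 sham and OVE26 uninephrectomy arrays. Gstm3 was dim, with signals of 141.7, 176.1, 108.9 and 251.3, and its diabetic uninephrectomy signal was the highest. The difference between the diabetic arrays was 1.04, but the mean for uninephrectomy of 0.65 ± 0.33 did not pass (limma adjusted p = 0.87). The other Gstm3 probe set lay below the filter and gave -0.49 between the diabetic arrays. For Gstm7, the 2 probe sets disagreed in direction, with a mean difference with diabetes of -0.38 for the brighter and 0.67 for the other. A dimmer Gstm1 probe set gave -0.31 with diabetes, against 0.07 for the brightest, and its other 2 gave 0.01 and 0.03. The other Gsta3 probe set gave 0.11, against -0.01. Over 9 such pairs in 7 genes, the direction was the same in 6 for diabetes and in 7 for uninephrectomy.

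Gstp1, the pi class enzyme, and Gsto1 had a higher signal in both diabetic groups than in both nondiabetic groups. The same held for Gstm5, Sult1b1 and Ugt2b38. Gsta4, Gstk1, Gstm7, Gstt1, Gstz1, Sult5a1, Ugt3a1 and Ugt3a2 had a lower signal in both diabetic groups than in both nondiabetic groups. The Gstp1 signal was 6921 and 7272 in the control groups, sham first, and 8840 and 8870 in the OVE26 groups. The mean over both arms was 0.32 ± 0.16 (limma adjusted p = 0.55). Gsto1, an omega class thioltransferase that also reduces dehydroascorbate, had signals of 2815, 3324, 3378 and 4279 on the control sham, control uninephrectomy, OVE26 sham and OVE26 uninephrectomy arrays. Its mean differences were 0.31 ± 0.15 with diabetes (limma adjusted p = 0.49) and 0.29 ± 0.15 with uninephrectomy (0.94). Its other probe set gave 0.27 and 0.13.

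Mgst1, a membrane-bound transferase of microsomes and mitochondria with peroxidase activity, had signals of 7076, 9821, 8607 and 11806 in the same order. Each operated group lay above its sham group by nearly the same amount, 0.47 in nondiabetic and 0.45 in diabetic mice. The mean of 0.46 ± 0.17 did not pass (limma adjusted p = 0.35), and passed under quantile normalisation (0.047). A further Mgst1 probe set lay below the filter, with signals between 8.2 and 41.1. Mgst3 had signals of 8053, 8721, 9381 and 7989.

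Of the 5 expressed sulfotransferase genes 0 passed limma for either factor (at an unadjusted p under 0.05, 1 for diabetes and 0 for uninephrectomy). Sult1d1, which sulfates catecholamines, had signals of 19973, 23898, 20968 and 23162 on the control sham, control uninephrectomy, OVE26 sham and OVE26 uninephrectomy arrays. Both operated groups lay above both sham groups, by 0.26 and 0.14 (mean 0.20 ± 0.20, limma adjusted p = 1), and its other probe set gave a mean of 0.27. Sult1c2 had signals of 7572, 6461, 5848 and 6593, with the diabetic sham array lowest.

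Sult5a1 was the expressed member with the largest negative difference with diabetes. Below the filter, the dim Gstt4, Sult1c1 and Ugt2b35 differed by -1.87, -0.98 and -0.97 in uninephrectomised mice. The Sult5a1 signals were low, 150.7 and 188.5 in nondiabetic sham and uninephrectomy mice. In diabetic sham and uninephrectomy mice they were 75 and 102.9, below both nondiabetic groups. The mean over both arms, -0.77 ± 0.35, did not pass (limma adjusted p = 0.43). Sult1a1, the main phenol sulfotransferase, had signals of 537.3, 518.1, 505.9 and 738, highest in diabetic uninephrectomy mice. Sult1b1 had signals between 170.3 and 243.1.

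The other 19 genes lay below the expression filter. Besides the Ugt2b genes above they were Ugt2a3, the glutathione transferase genes Gstm6, Gsto2, Gstp3, Gstt4 and Mgst2, and the sulfotransferase genes Sult1c1, Sult1e1, Sult2a2, Sult2a8, Sult2b1, Sult3a1, Sult4a1 and Sult6b1. Sult1e1, the estrogen sulfotransferase, had signals between 1.4 and 27.8. Gstp3 had signals of 19.5 and 6 in sham mice and of 85.5 and 87.4 after uninephrectomy in nondiabetic and diabetic mice. In limma without the filter 0 of the 46 genes passed for either factor (at an unadjusted p under 0.05, 8 for diabetes, 17.4%, against 6.75% of all 18193 genes, and 6 for uninephrectomy, 13%, against 4.44%).

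Genes that supply or clear the conjugates were followed in 6 lists, with 65 of 79 genes expressed. In limma 3 rose and 1 fell with diabetes (6.15%, against 2.23% of all expressed genes), and 0 rose and 1 fell with uninephrectomy (1.54%, against 0.518%). In the list of mercapturic acid and conjugate handling, with 12 expressed genes, Abcc2, the apical pump that exports conjugates, rose by 0.54 ± 0.15 with diabetes (limma adjusted p = 0.037). Its signal was 2091 and 2438 in the control groups, sham first, and 3271 and 3314 in the OVE26 groups. Abcc3, a basolateral pump for conjugates, fell by 1.03 with uninephrectomy (SE 0.18, limma adjusted p = 0.00028). The Abcc3 signal went from 1323 to 532.2 between the control arrays and from 1430 to 822.4 between the OVE26 arrays. Ggt5, a gamma-glutamyltransferase gene, read 122.2 on the nondiabetic and 363.2 on the diabetic sham array, and 197.4 and 281.1 after uninephrectomy, and did not pass for diabetes (limma adjusted p = 0.091).

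Of 10 expressed genes of glutathione synthesis and recycling 0 rose and 1 fell with diabetes. This was Cbs, the first enzyme of transsulfuration, which fell by 0.88 (SE 0.25, limma adjusted p = 0.036). Signals for Cbs were 515.6 and 428.2 in the control groups, sham first, and 254.7 and 233.7 in the OVE26 groups. The glutathione synthesis genes Gclc, Gclm and Gss had mean differences with diabetes of 0.14, -0.04 and 0.14. Of 10 other NRF2-linked enzymes 2 rose with diabetes and 0 fell, against 1.48% and 0.75% of all expressed genes. Ephx1, the microsomal epoxide hydrolase, rose by 0.88 ± 0.16 (limma adjusted p = 0.00012). Its signal was 1470 and 1199 in the control groups, sham first, and 2596 and 2345 in the OVE26 groups. Srxn1, which repairs peroxiredoxins, rose by 0.62 ± 0.17 (limma adjusted p = 0.026). With the mean of its probe sets Srxn1 differed by 0.02.

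In limma 0 of 10 genes of UDP-glucuronate supply and deconjugation passed for either factor (0 at an unadjusted p under 0.05 for both). Ugdh, which makes UDP-glucuronic acid, had mean differences of 0.29 ± 0.16 with diabetes and -0.18 ± 0.16 with uninephrectomy. In the list of sulfate activation and desulfation 0 of 14 passed limma (at an unadjusted p under 0.05, 0 for diabetes and 1 for uninephrectomy). The PAPS synthase gene Papss2 read 10912 on the diabetic uninephrectomy array and between 14433 and 14924 on the other 3. Of 9 expressed regulators of conjugation genes 0 passed limma (at an unadjusted p under 0.05, 1 for diabetes and 0 for uninephrectomy), and their median difference with diabetes was 0.00 in sham and -0.40 in uninephrectomised mice. Nfe2l2, which encodes NRF2, had a mean difference of 0.02 with diabetes.

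Promoter windows of 250 bases before to 50 after the start were found in RefSeq for 24 of the 27 expressed members. The core letters of the electrophile response element, TGACNNNGC on either strand, were present for 4 of these 24 genes (Gsta3, Gstm5, Gstm7 and Mgst1), against 14% of all 27025 genes with such windows. The HNF1 palindrome core was present in Sult1d1 alone, against 0.47% of all genes. TNGCGTG, the core of the xenobiotic response element, was present in Gsta2 and Sult1d1, against 5.84% of all genes, and CAAAGTCCA, an HNF4 repeat also read on both strands, in Sult1b1, against 0.555%. These are matches of letters and not tested binding sites.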

How the data were processed

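The deposited table gives, for each probe set, a linear intensity that the authors had already summarised from single probes. The sources used here do not give the software, the background correction or any detection calls. The mean without the highest and lowest 2% of the deposited intensities was 500.003 on each of the 4 arrays, so the authors had scaled them to a common level. Per the labels' protocols, 100 ng of RNA pooled from 4 mice was labelled with biotin for each array.

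Probe sets were named through the platform annotation, which gave 1 symbol for 34945 probe sets and several for 932, while 9160 are unnamed here and 64 are controls. A RefSeq gene table (GRCm38.p6) held 34741 of the 34945 and changed 0 symbols. A probe set with several symbols was a member only if all of them matched, and entered no test. This left out 1 probe set that lists Gsta1 and Gsta2 with another gene. Values were set on the log2(intensity + 26.4) scale (26.4 is the 20th percentile), and each gene was taken from its probe set with the highest mean. The offset shrinks the differences of dim genes towards 0.

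limma 3.58.1 in R 4.3.3 fitted diabetes and surgery as additive terms (eBayes with a trend), with 59.5 prior and 1 residual degrees of freedom. On simulated data of 11197 genes for diabetes over both surgeries it recovered 63% of genes changed by 1 and 99% of those changed by 2 on the log2 scale, with 4 unchanged genes among 166 calls. The simulated noise was independent between arrays, had limma's own moderated SD, and the change was equal in both arms. The simulation therefore checks the code only, and the share of false calls on the real arrays was not tested. Signals of all 4 arrays are given for members that passed, that were 2-fold different or that were among the 10 with the highest mean, and for further members where a sentence needs them. From the pathway lists, members that passed or were 2-fold different are named, up to 5 per list, and Gclc, Gclm, Gss, Ugdh, Papss2 and Nfe2l2 are named outside that rule, with their values seen. The members, lists and alternatives were chosen with earlier results of these data known. The alternatives were quantile normalisation, median centring, offsets of 1 and 72.5 (the 40th percentile), removing the filter or raising it to the 75th percentile, averaging the probe sets of a gene, testing each probe set by itself, a 1.5-fold threshold, an adjusted p under 0.1 and a prior variance in limma with no trend.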

Additional observations from a re-analysis of the deposited data

Results flagged for a closer look

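For 3 members the 2 arms of a factor went in opposite directions, each by at least the gene's moderated SD in limma, which comes almost entirely from other genes. With 1 array in each group, these differences between arms were not tested. Gsta3 differed with diabetes by 0.16 in sham and -0.17 in uninephrectomised mice, a difference of -0.32 between the arms. Gstt2 differed with uninephrectomy by 0.27 in nondiabetic and -0.29 in diabetic mice, a difference of -0.56. Sult1c2 differed with uninephrectomy by -0.23 in nondiabetic and 0.17 in diabetic mice, a difference of 0.40. With each array centred on its median the pairs of arms were 0.07 and -0.05 for Gsta3, 0.14 and -0.21 for Gstt2, and -0.36 and 0.25 for Sult1c2.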

How the results depend on the processing

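The limma calls rest on the spread borrowed from other genes, and no value here measures the spread between mice. The number of members that rose with diabetes, 1 in the main setting, was 0 with median centring, no expression filter, averaged probe sets, single probe sets and limma without a trend. The number that rose with uninephrectomy, also 1, was 0 in the same 5 settings. It was 3 with quantile normalisation and with the offset of 72.5, and 2 with the stricter filter and with an adjusted p under 0.1. With the offset of 72.5 the members tested included Ugt2b37, which reached the filter only through its diabetic uninephrectomy signal. The number that fell with diabetes, 0 in the main setting, was 1 with quantile normalisation, the stricter filter and an adjusted p under 0.1 (limma, 5 lower members at an unadjusted p under 0.05). The mean difference of Ugt2b38 with diabetes lay between 0.68 and 0.70 in the 9 alternatives to the limma fit and passed in 4 of them, with adjusted p between 0.00043 and 0.47. That of Ugt2b34 with uninephrectomy lay between 0.66 and 0.75 and passed in 4 of 9, with adjusted p between 0.003 and 0.69. For uninephrectomy, Ugt2b38 passed in 3 of them. The calls for Abcc2 and Srxn1 with diabetes and Abcc3 with uninephrectomy held in 4 of 9 alternatives each, that for Cbs in 3 of 8 and that for Ephx1 in 6 of 9. Across all genes, limma called 250 with diabetes and 58 with uninephrectomy, against 86 and 9 with median centring, 13 and 2 with no filter, 3 and 1 with averaged probe sets, 62 and 16 with single probe sets, and 0 and 4 without a trend (906 and 595 at an unadjusted p under 0.05). For uninephrectomy it called 116 of 11204 genes with quantile normalisation, 77 of 11205 with the offset of 72.5, and 81 of 6942 with the stricter filter. At an adjusted p under 0.1 it called 95 of 11197 for uninephrectomy and 310 for diabetes. For diabetes it called 314 of 11204 with quantile normalisation and 225 of 6942 with the stricter filter. The cause of these changes was not tested.

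Without the expression filter, which adds the 19 dim genes, 2 members were at least 2-fold higher with diabetes in sham mice, 4 were higher and 1 lower with diabetes in uninephrectomised mice, 3 were higher and 1 lower with uninephrectomy in nondiabetic mice, and 5 were higher and 2 lower in diabetic mice. With the offset of 72.5, 28 members were expressed, with Ugt2b37 added, and 2 were higher with diabetes in uninephrectomised mice. With the stricter filter and with averaged probe sets, 1 member was higher with uninephrectomy in diabetic mice. At 1.5-fold, 2 members were lower with diabetes in sham mice, and 1 was higher and 3 were lower with diabetes in uninephrectomised mice. With uninephrectomy 1 was higher in nondiabetic mice and 3 were higher in diabetic mice. The matching shares of all genes were not counted in these settings, so these fold counts are not a result about the members. The median differences of the members moved by less than the members' median moderated SD in limma of 0.16 in all alternatives run, and no limma call turned its direction. Of 54 pairs of gene and factor, 8 changed sign in at least 1 alternative while passing neither there nor in the main setting. No paired analysis was possible because each group holds 1 array.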
